A study of Mus musculus with 4 samples.

Results

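The cells described here were CD4 T cells without Foxp3 in which transcripts of both Xcl1 and Crtam were found. They were chosen from the counts themselves: a cell with at least 1 UMI (unique molecular identifier, 1 counted transcript) of Xcl1, at least 1 of Crtam and 0 of Foxp3 was a member. By this rule 178 of 22534 cells were members, here called Xcl1 Crtam cells. The series profiled CD4 T cells one by one from the lamina propria of the small intestine, the connective tissue under the epithelium, of wild-type C57Bl/6 mice. Living cells had been sorted by flow as CD45+, CD3+ and CD4+ and taken into the Chromium 5′ chemistry, as 4 libraries of 1 group without treatment. All comparisons were between classes of cells within these 4 libraries, and the labels did not say that each library held 1 mouse, so the spread measured here is that between libraries.

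Xcl1 (lymphotactin) is a chemokine that T cells and natural killer cells release, and its receptor Xcr1 marks the dendritic cells that cross-present antigen. Crtam is a surface protein of the immunoglobulin superfamily that T cells gain after the T cell receptor (TCR) is engaged, and on CD4 T cells it is known to accompany interferon-gamma production and a cytotoxic programme. Ccl1 is the chemokine ligand of Ccr8, and Tnfrsf9 encodes 4-1BB, a co-stimulatory receptor of the TNF receptor family that appears on activated T cells and signals to NF-kB. In the intestine, Crtam is known from CD4 T cells that settle among epithelial cells. Xcl1 (ENSMUSG00000026573) lies on chromosome 1 at 164931644 to 164935527 of GRCm38, Crtam (ENSMUSG00000032021) on chromosome 9 at 40969691 to 41004628, both on the minus strand. Tnfrsf9 (ENSMUSG00000028965) lies on chromosome 4 at 150914562 to 150946102, on the plus strand.

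The 250 bases before the RefSeq start sites of Xcl1, Ccl1 and Tnfrsf9 are shown because these genes chose or marked the cells and because TCR-driven factors are known to act at such sites. Capitals mark matches, on either strand, to the NFAT core GGAAA, to the AP-1 site TGANTCA or to the NF-kB consensus. Coordinates and sequence are RefSeq's for GRCm38.p6, each read 5′ to 3′ along the gene's strand.
Xcl1, chr1:164935523-164935772, minus strand: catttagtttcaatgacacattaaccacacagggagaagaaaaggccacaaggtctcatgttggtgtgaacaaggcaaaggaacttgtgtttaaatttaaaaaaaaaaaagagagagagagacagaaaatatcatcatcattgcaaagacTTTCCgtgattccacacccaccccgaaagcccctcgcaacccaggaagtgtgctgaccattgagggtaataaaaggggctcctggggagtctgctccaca
Ccl1, chr11:82179813-82180062, minus strand: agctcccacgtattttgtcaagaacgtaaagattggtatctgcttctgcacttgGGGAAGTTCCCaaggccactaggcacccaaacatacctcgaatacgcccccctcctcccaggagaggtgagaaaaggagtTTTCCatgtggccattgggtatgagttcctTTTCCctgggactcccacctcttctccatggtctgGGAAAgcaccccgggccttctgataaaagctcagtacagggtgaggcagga
Tnfrsf9 start 1, chr4:150919905-150920154, plus strand: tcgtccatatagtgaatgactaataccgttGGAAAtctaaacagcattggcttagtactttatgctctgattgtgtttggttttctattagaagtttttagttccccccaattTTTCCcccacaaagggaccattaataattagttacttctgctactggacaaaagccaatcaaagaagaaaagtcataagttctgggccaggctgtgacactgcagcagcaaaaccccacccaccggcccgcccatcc
Tnfrsf9 start 2, chr4:150927749-150927998, plus strand: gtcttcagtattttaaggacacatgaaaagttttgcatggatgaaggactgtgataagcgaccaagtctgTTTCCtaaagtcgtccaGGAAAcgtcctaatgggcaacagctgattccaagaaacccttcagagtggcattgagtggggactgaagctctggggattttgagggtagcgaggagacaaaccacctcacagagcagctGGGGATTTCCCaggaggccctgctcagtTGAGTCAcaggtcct
The Xcl1 window held 1 NFAT core and neither of the other motifs. In the Ccl1 window there were 3 NFAT cores and 1 NF-kB run. The second Tnfrsf9 start was preceded by 3 NFAT cores, 1 AP-1 site and 1 NF-kB run, of which 1 NFAT core overlapped the NF-kB run, and the first start by 2 NFAT cores alone. Of 32851 such windows, 55.6% held an NFAT core, 6.75% an AP-1 site and 7.25% an NF-kB match, so an NFAT core by itself is common.

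Xcl1 Crtam cells were rare in every library. They numbered 42, 33, 42 and 61 in libraries 1 to 4, or 0.742%, 0.558%, 0.753% and 1.13% of the cells (mean 0.797% ± 0.241, SD, n = 4 libraries). At full depth the exact 95% binomial interval ran from 0.385% to 0.783% in library 2 and from 0.868% to 1.45% in library 4. At that depth library 4 lay above library 2 beyond counting error, but its cells were deeper (median 4044 against 3685 UMIs). With each cell thinned to 2000 UMIs the intervals overlapped, at 0.256% to 0.604% in library 2 and 0.375% to 0.802% in library 4. Xcl1 alone was common: a UMI was found in 33.7% ± 3.70 of Foxp3-negative cells. Crtam was found in 1.35% ± 0.238 of them. Among Foxp3-negative cells with Xcl1, 2.54% ± 0.579 also held Crtam, against 0.741% ± 0.0998 of those without. After each cell was thinned to 2000 UMIs, these shares were 1.80% ± 0.381 and 0.381% ± 0.0996, and the ranges over libraries did not overlap at either depth. Of 1734 cells with Foxp3, 11 held both transcripts.

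**Figure D1:**
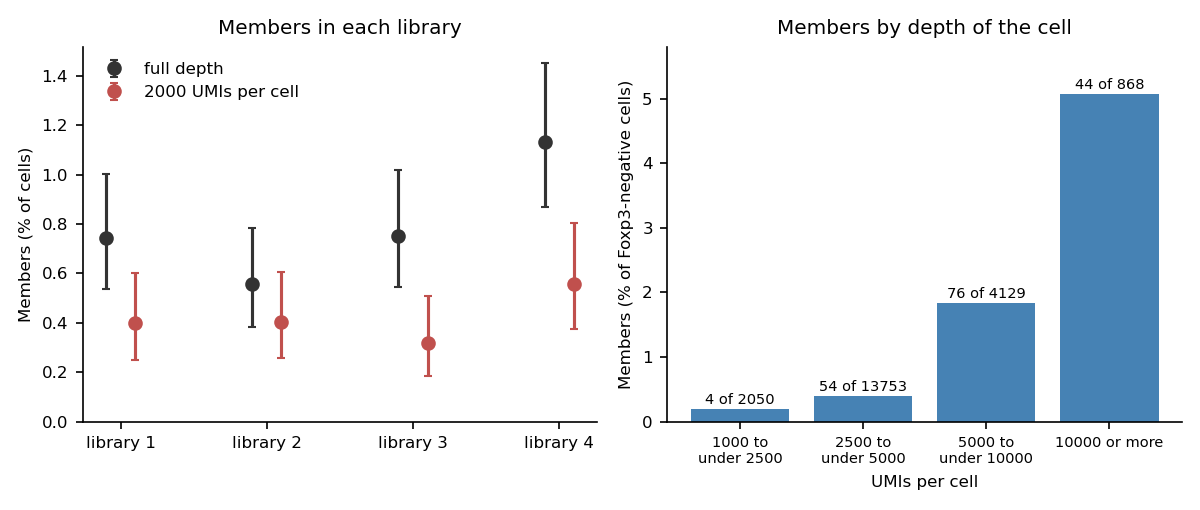
Left: Xcl1 Crtam cells as a percentage of all cells in each of the 4 libraries, at full depth (dark) and with each cell thinned to 2000 UMIs (red), with exact 95% binomial intervals. Right: bars give their percentage among Foxp3-negative cells in 4 bands of UMIs per cell, with the counts above; the share rises from 0.195% in the shallowest band to 5.07% in the deepest.

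The members were deep, and a rule of 2 transcripts favours cells with many UMIs. The median member held 7034.5 UMIs and 2388.5 genes, against 3748 UMIs and 1623 genes in cells with neither transcript. Median UMIs were 4043 in cells with Xcl1 alone and 4290 in those with Crtam alone. Other Foxp3-negative cells chosen by 2 transcripts had medians of 4090 (Il2 and Cd40lg) and 4316 (Ifng and Il12rb2). The part of the rule in the members' depth was not tested. The share of members rose with depth, from 4 of 2050 Foxp3-negative cells with 1000 to under 2500 UMIs (0.195%) to 44 of 868 with 10000 or more (5.07%). With every cell thinned to 2000 UMIs, 0.419% ± 0.101 of cells met the rule (91 of 21776). Doublet scores put 13 members (7.30%) among the cells most like 2 captured together, against 3.16% of double-negative cells, and the median mitochondrial share was 2.16% against 2.26%. For this reason each comparison but that with Crtam-only cells, which were too few, was repeated against an equal number of cells of the same library and nearly the same UMI total, called depth-matched here, and those values are given wherever they ended a call, turned a direction or moved a value by more than 1.5 times. That repeat used few cells, so it also tested fewer genes and had less power. Of 116 named genes called against double-negative cells, 87 could be tested there. Where no depth-matched value is given, the gene may have been too low to be tested, so its absence does not mean that a call held. Between libraries 260 barcode sequences were shared, 1 of them held by a member.

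Of the 2 rule genes, Xcl1 was above 1 UMI in 154 of 178 members and Crtam in 90. Xcl1 stood at 4207, 6646, 4854 and 3413 CPM (UMIs summed over the members of a library and scaled to a total of 1000000) in libraries 1 to 4, mean 4780 ± 1376, against 831 ± 66.5 CPM in cells with Xcl1 and no Crtam. The median member held 17.5 UMIs of Xcl1, and the median Xcl1-only cell 2. Crtam stood at 467, 645, 535 and 419 CPM, mean 517 ± 98.0, against 244 ± 47.5 CPM in cells with Crtam and no Xcl1. These values chose the cells and are description only. Just inside the rule, 24 members held exactly 1 UMI of Xcl1, 88 exactly 1 of Crtam and 21 exactly 1 of both; in these 21 cells Tnfrsf9 was at 34.0 ± 46.7 CPM, and Slc30a3, Nrgn and Cnih2 were at 0. In the 87 members with 2 or more UMIs of both, Tnfrsf9 was at 1140 CPM. Just outside the rule, Tnfrsf9 was at 44.7 ± 12.4 CPM in the 6831 Xcl1-only cells and at 218 ± 145 CPM in the 102 Crtam-only cells.

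T cell transcripts were those of the sorted population. All 178 members held Cd3e, the epsilon chain of the CD3 complex, at 1942 ± 184 CPM against 1895 ± 68.0 in double-negative cells. Cd4 was found in 155 members, at 326, 358, 308 and 340 CPM, against 366 ± 13.6 CPM. Cd8a, a chain of the CD8 co-receptor, was found at full depth in 20 members (11.2%) and in 3.20% of double-negative cells. It was at 36.0, 155, 19.5 and 41.0 CPM in members, against 10.2, 22.9, 13.5 and 63.4 CPM (27.5 ± 24.5). Library 2 of the members stood apart, and the ranges overlapped. Cd8a was not called, and its log2 fold change was 0.0739 without library 2. Without library 4 it was called as higher (log2 2.02, edgeR adjusted p = 0.00547). Cd79a and Ms4a1 of B cells were at 0, as were Mzb1 of plasma cells, Itgax of dendritic cells, and Ncr1 and Klra8 of natural killer cells. Their lists were detected at 2 of 5, 4 of 5, 6 of 7 and 6 of 8 genes, with summed levels over libraries of 0 to 19.4, 3.98 to 19.4, 217 to 634 and 38.9 to 159 CPM. The same sums in double-negative cells were 7.55 to 15.9, 138 to 1053, 284 to 351 and 35.3 to 58.2 CPM. Ncr1 and Klra8 were at 0 in double-negative cells too. Cd79a and Mzb1 were at 2.89 and 7.12 CPM there, where 0 in the members allows up to 1.99 CPM, so the 0 of Cd79a says little. A myeloid marker was found in 115 of 178 members and 6104 of 13689 double-negative cells, and a natural killer or innate lymphoid marker in 30 and 1008. Epithelial, stromal and mast cell lists had 2 of 6, 1 of 5 and 1 of 5 genes detected, and summed to 15.4 to 35.7, 7.96 to 29.2 and 0 to 24.9 CPM against 10.2 to 19.1, 39.9 to 44.5 and 1.48 to 4.32 CPM, and the gamma-delta T list 4 of 4, at 30.4 to 195 against 61.6 to 116 CPM. Among these markers 3 were higher in members by edgeR's test, each with overlapping libraries. Epcam of epithelial cells was at 22.6 ± 8.95 against 12.8 ± 2.95 CPM, but its call was lost whichever library was left out (edgeR adjusted p = 0.0656 to 0.270). Kit of mast and innate lymphoid cells was at 10.5 ± 11.3 against 2.44 ± 1.24 CPM. Fcer1g, an Fc receptor chain of natural killer cells, was at 29.7 ± 28.3 against 8.40 ± 2.31 CPM. The part of such cells or of their RNA in the results was not tested beyond the rerun given next. Leaving out the cells with a UMI of Cd79a, Jchain, Lyz2, Epcam, Trdc or Ncr1, 35 members among them, left 0.706% of cells as members. Without them, 1752 genes differed from double-negative cells (17.3% of those tested, from 22.6%) and 2105 from Xcl1-only cells (20.8%, from 25.6%). The counts were 185 for Crtam-only (1.83%, from 3.94%), 1912 for Il2 Cd40lg (20.2%, from 25.7%) and 2089 for Ifng Il12rb2 cells (22.1%, from 27.4%).

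The 4 genes proposed as markers of these cells included Tnfrsf9 and Ccl1, which had been picked with results of these libraries known, so their values are given without a test. Tnfrsf9 was at 1087, 948, 652 and 643 CPM in the members of libraries 1 to 4 and at 56.5, 96.0, 64.8 and 56.3 CPM in double-negative cells, a log2 fold change of 3.57 ± 0.17 (SE). The lowest member value was well above the highest double-negative one. At 2000 UMIs per cell, 50.5% ± 6.00 of members held a Tnfrsf9 UMI, against 5.89% ± 1.11 of double-negative cells; at full depth the shares were 65.8% and 9.37%. Ccl1 varied more, at 158, 812, 282 and 516 CPM against 5.08 ± 2.13 CPM (log2 6.28 ± 0.32), and was found in 18.5% of members at 2000 UMIs against 0.287%, or 28.6% against 0.483% unthinned.

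Against double-negative cells (Foxp3-negative, with neither transcript, 13689 cells), 2344 of 10387 genes differed, 22.6% of those tested. Of these, 1246 were higher in members (12%) and 1098 lower (10.6%), by edgeR's quasi-likelihood test with Benjamini-Hochberg adjustment at 0.05. Against depth-matched cells, 228 were higher (4.48%) and 188 lower (3.7%) of 5086 (8.18% in all). The counts for each gene list below are to be read beside these shares of all genes. A list near them differed no more than the genes at large. Of the 1833 genes called at first that were tested again, 1670 kept their direction and 359 were called again in it (7.06% of the 5086). Higher genes were 53.2% of the calls here, 58.7% with scaling by library size alone and 64.3% with DESeq2's size factors and Wald test. They were the smaller part in other settings. Their share was 38.3% with each cell thinned to 2000 UMIs, 44.1% without the filter on low counts and 48.6% with members of at least 2 UMIs of each gene.

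**Figure D2:**
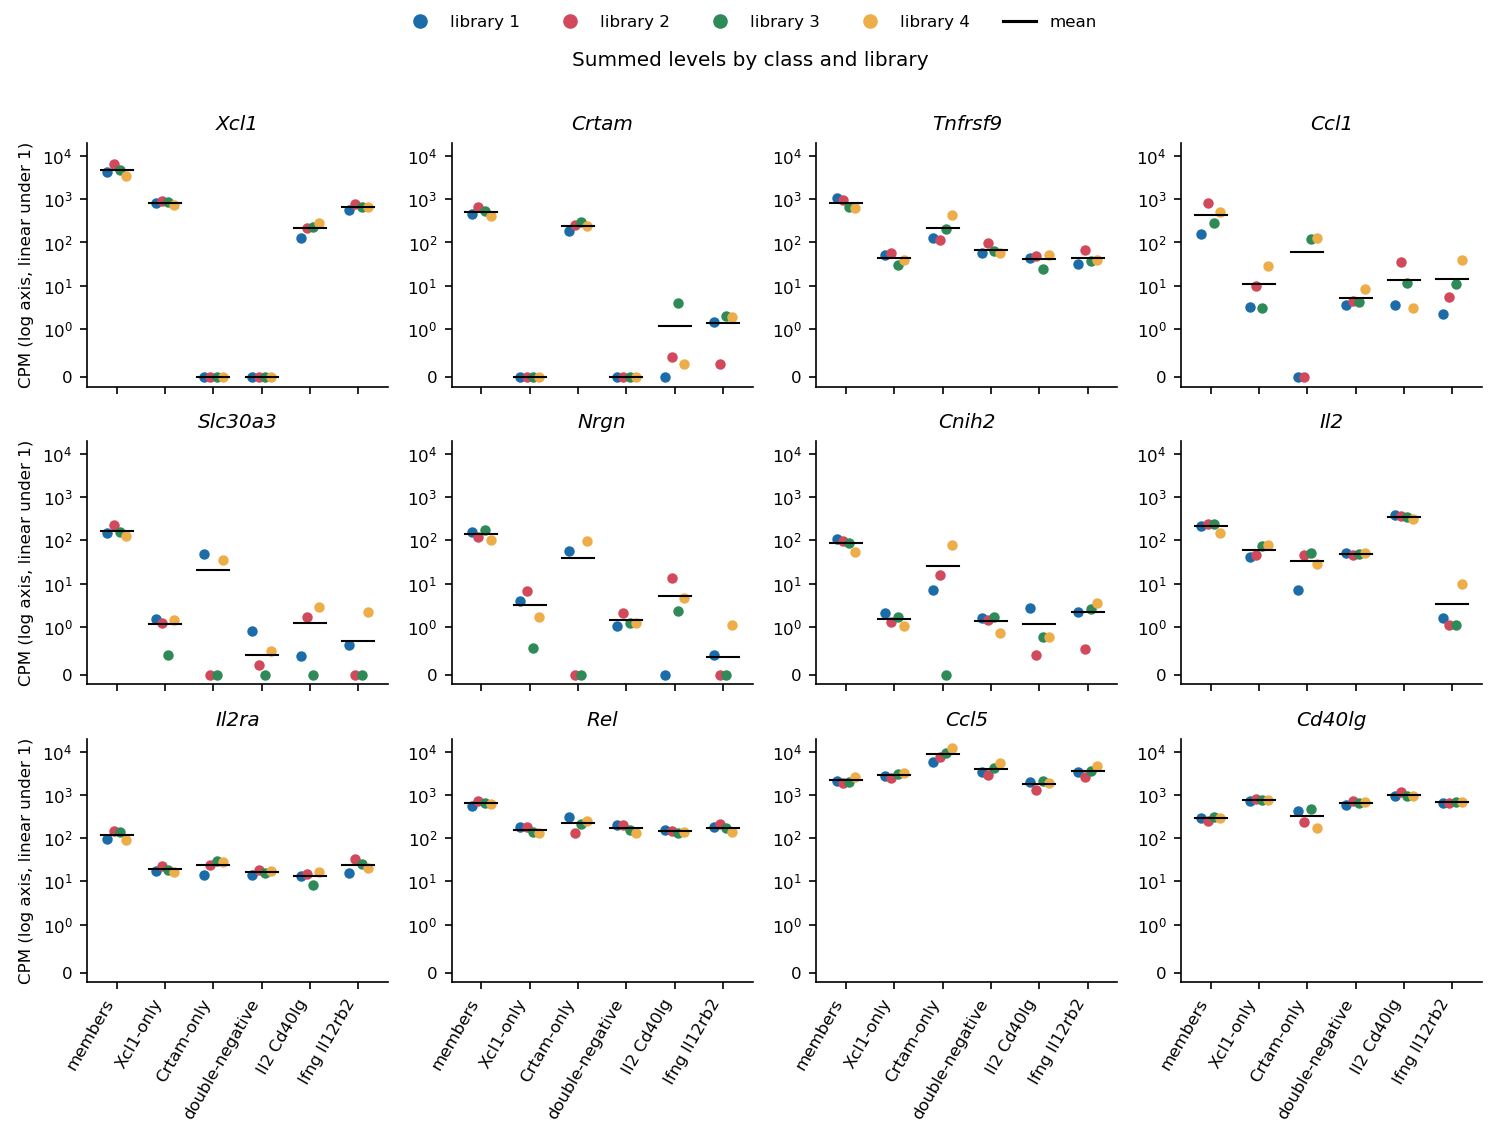
Level of 12 genes (CPM, log axis that is linear under 1) in Xcl1 Crtam cells (members), the 3 other Foxp3-negative classes of the rule, and Il2 Cd40lg and Ifng Il12rb2 cells; each point is a library and the line is the mean of 4. Xcl1 and Crtam chose the classes; for Tnfrsf9, Ccl1, Slc30a3, Nrgn and Cnih2 all points of the members lie above those of the other classes, except that Cnih2 in Crtam-only cells overlaps.

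Slc30a3, Nrgn and Cnih2 were among the genes named for the highest fold changes. All 3 passed the filter on low counts through their levels in members, so their values are given without p-values. Slc30a3 (ENSMUSG00000029151, chromosome 5, 31086106 to 31108237), which loads zinc into synaptic vesicles, was at 144, 227, 152 and 123 CPM in members and at 0.407 ± 0.396 CPM in double-negative cells (log2 8.42 ± 0.37). Without library 1 the log2 fold change was 9.24. Nrgn (ENSMUSG00000053310, chromosome 9, 37544492 to 37552904), which encodes neurogranin, a calmodulin-binding protein of neurons, was at 158, 119, 172 and 99.2 CPM against 1.40 ± 0.479 (log2 6.61 ± 0.42). Cnih2 (ENSMUSG00000024873, chromosome 19, 5092868 to 5098521), an auxiliary subunit of AMPA glutamate receptors, was at 105, 95.6, 84.3 and 53.0 CPM against 1.38 ± 0.364 (log2 5.84 ± 0.34). For all 3 genes the libraries of the classes did not overlap, as for 13.6% of all genes with higher and 13.4% with lower values in members.

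Members made up different shares of the cells that held these transcripts. Of 110 cells with a Slc30a3 UMI among all 22534, 62 were members (56.4%). For Nrgn 39 of 147 cells were members (26.5%) and 47 were double-negative, and for Cnih2 49 of 233 were members (21.0%), 77 double-negative and 59 held Foxp3, so most cells with Nrgn or Cnih2 were not members. Of 71 cells with at least 2 of Slc30a3, Nrgn and Cnih2, 48 were members, 11 Xcl1-only, 5 Crtam-only, 5 double-negative and 2 held Foxp3. By contrast, Tnfrsf9 was found in 3285 cells, of which 117 were members (3.56%) and 1225 held Foxp3. At 2000 UMIs per cell, Slc30a3 was found in 21.6% of members against 0.0610% of double-negative cells.

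Of 13 TNF ligand genes tested, 8 were higher and 3 lower (6 and 0 of 9 against depth-matched cells). Cd70, the ligand of Cd27, was at 19.4, 35.8, 16.2 and 13.7 CPM against 0.192 ± 0.142 (log2 6.46 ± 0.59), from 10 members. Cd70 passed the filter on low counts through its level in members, so no p-value is given. It was too low to be tested at equal depth. Lta, lymphotoxin alpha, was at 49.8, 39.8, 133 and 41.0 CPM against 8.43 ± 0.517 (log2 2.86 ± 0.29). Tnfsf9, which encodes the ligand of 4-1BB itself, was at 19.4, 108, 16.2 and 17.1 CPM against 6.10 ± 0.563 (log2 2.39 ± 0.44). The Tnfsf9 change was 1.41 without library 2. Cd40lg, the CD4 T cell's signal to B cells and dendritic cells, was lower at 293, 255, 311 and 296 CPM against 656 ± 57.8 (log2 -1.20 ± 0.12), but the call was lost against depth-matched cells (log2 -0.48, edgeR adjusted p = 0.136).

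Of 16 effector cytokine genes tested, 5 were higher and 2 lower (median log2 -0.52), and at equal depth 2 were higher and 1 lower of 8 (median 0.15). Il2, the T cell growth factor, was at 213, 243, 237 and 150 CPM against 49.2 ± 2.73 (log2 1.95 ± 0.21), although the depth-matched change of 1.85 was not called (edgeR adjusted p = 0.0730). Areg, an epidermal growth factor-like repair factor, was at 821, 880, 172 and 246 CPM against 182 ± 28.7 (log2 1.35 ± 0.23); libraries overlapped, and the depth-matched call was lost (edgeR adjusted p = 0.0758). Csf2 was at 24.9, 299, 3.24 and 71.8 CPM against 2.56 ± 1.42 (log2 4.92 ± 0.56). A single cell held 44.9% of its UMIs, and the change was 3.54 without library 2 and 5.57 without library 1. Ifng and Penk, named after their values were seen, were at 416 ± 209 against 221 ± 31.4 CPM and at 329 ± 264 against 56.8 ± 25.6 CPM. Il10, an inhibitory cytokine, was lower at 5.53, 15.9, 35.7 and 0 CPM against 37.4 ± 6.88 (log2 -1.69 ± 0.39); the change was -2.82 without library 3 and -1.10 without library 4, and the depth-matched call was lost (edgeR adjusted p = 0.237). Of the 7 chemokines tested apart from Xcl1 and Ccl1, 0 were higher and 2 lower. Ccl5 was lower at 2178 ± 320 against 3988 ± 1136 CPM (log2 -0.88 ± 0.10), but at 0.18 against depth-matched cells, where it was not called (edgeR adjusted p = 0.587).

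The TCR complex and its proximal signalling genes were higher in 0 and lower in 4 of 14, and higher in 1 and lower in 0 of 14 at equal depth. Of 18 TCR-induced transcription factors tested, 9 were higher and 1 lower (7 and 0 of 17 depth-matched; median log2 0.38, against -0.05 over all genes). Nr4a2, an orphan nuclear receptor induced within hours of TCR engagement, was at 763, 617, 755 and 559 CPM against 208 ± 18.2 (log2 1.65 ± 0.14, edgeR adjusted p = 4.12e-09). Nr4a1 was at 711, 1513, 817 and 881 CPM against 425 ± 73.1 (log2 1.15 ± 0.16). Myc, which drives growth of activated T cells, was at 174, 203, 133 and 101 CPM against 41.4 ± 2.36 (log2 1.76 ± 0.20), and Irf8 was at 38.7, 59.7, 146 and 99.2 CPM against 17.8 ± 5.03 (log2 2.32 ± 0.32; 1.56 depth-matched). For these 4 genes no library of members overlapped a library of double-negative cells. Egr1 and Fos, early response genes that tissue digestion can also induce, were at 100 ± 43.9 against 98.2 ± 9.97 CPM and 797 ± 83.3 against 838 ± 65.9 CPM, and were not called; both were picked after their values were seen. Of the 20 genes of tissue dissociation stress and heat shock to which they belong, 6 were higher and 2 lower (5 and 0 of 16 at equal depth). The 6 were heat shock chaperones, such as Hspd1 at 387 ± 56.7 against 138 ± 14.0 CPM and Hsp90ab1 at 3407 ± 290 against 1723 ± 133 CPM, and the 2 were Btg1 and Jun. The part of tissue handling in these values was not tested.

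NF-kB factors and their feedback genes were higher in 11 and lower in 4 of 20 (11 and 1 of 20 depth-matched; median log2 0.39 and 0.69). Rel, the c-Rel subunit that 4-1BB and CD28 signals engage, was at 559, 705, 658 and 617 CPM against 174 ± 33.4 (log2 1.86 ± 0.11, edgeR adjusted p = 1.08e-11). It was found in 52.2% of members and 23.3% of double-negative cells at 2000 UMIs, and in 72.9% and 37.4% unthinned. Nfkb1 rose by less, to 166 ± 9.72 from 89.3 ± 17.6 CPM (log2 0.89 ± 0.11). Gadd45b, a stress sensor under NF-kB control, had a log2 fold change of 0.76. In the other comparisons the NF-kB list differed. Against Ifng Il12rb2 cells 3 were higher and 7 lower of 20 (all genes 14.4% and 13%), and 4 and 3 at equal depth. Against Xcl1-only cells 10 were higher and 5 lower (all genes 13.6% and 12%), and 8 and 1 at equal depth. Against Il2 Cd40lg cells 12 were higher and 1 lower (all genes 14.4% and 11.3%), and against Crtam-only cells 9 and 0 (2.67% and 1.27%).

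In the IL-2 and STAT5 list, 8 of 16 genes were higher and 4 lower (8 and 0 of 14 depth-matched). Il2ra, the high-affinity IL-2 receptor chain CD25, was at 94.0, 143, 139 and 92.3 CPM against 16.4 ± 1.66 (log2 2.75 ± 0.15, edgeR adjusted p = 3.77e-12). Stat5a, which carries its signal, was at 109 ± 26.9 against 33.7 ± 4.33 CPM. Bcl2l1, the survival gene that encodes Bcl-xL, was at 79.0 ± 32.4 against 23.8 ± 2.54 CPM. Among TNF receptors and co-stimulatory genes other than Tnfrsf9, 5 of 14 were higher and 2 lower. Tnfrsf4 (OX40) was at 509 ± 109 against 224 ± 42.9 CPM, and Cd28 was at 203 ± 26.3 against 347 ± 19.5 CPM. In the other comparisons the IL-2 and STAT5 list was mixed. Against Ifng Il12rb2 cells 5 were higher and 8 lower of 16 (all genes 14.4% and 13%), and against Xcl1-only cells 5 and 5 (13.6% and 12%). Against Il2 Cd40lg cells 8 were higher and 3 lower (14.4% and 11.3%), and against Crtam-only cells 5 and 1 (2.67% and 1.27%).

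Inhibitory genes went both ways. Of 25 brakes on TCR signalling, 4 were higher and 8 lower, and of 14 checkpoint receptors 3 were higher and 5 lower. Over all genes tested, 12% were higher and 10.6% lower, and 4.48% and 3.7% at equal depth. At equal depth most of the lower calls were lost: 2 were higher and 2 lower of 22 brakes, and 3 higher and 1 lower of 10 checkpoint receptors. The medians moved from -0.15 to 0.16 and from -0.40 to 0.05 on the log2 scale. Rgs16, a regulator of G protein signalling, was at 88.5, 159, 84.3 and 66.7 CPM against 8.23 ± 1.23 (log2 3.42 ± 0.25), whereas Rgs1 was at 1287 ± 278 against 2615 ± 89.0 CPM (log2 -1.08 ± 0.10). Dusp14, a phosphatase of MAP kinases that is in no list, was at 185, 601, 217 and 145 CPM against 13.1 ± 3.51 (log2 4.28 ± 0.29). Cd160, a receptor for HVEM, was at 797, 768, 512 and 465 CPM against 222 ± 6.85 (log2 1.44 ± 0.13). Lag3 was at 107 ± 19.2 against 39.3 ± 5.12 CPM, and Ctla4 at 564 ± 40.7 against 1063 ± 142 CPM, so the latter moved the other way (log2 -0.93 ± 0.10).

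Growth genes were the most uniform list. Of 20 genes of growth and ribosome biogenesis, 19 were higher and none lower (median log2 1.07), and 11 of 17 were higher against depth-matched cells (median 0.67). Srm, spermidine synthase, was at 69.1, 79.6, 113 and 121 CPM against 23.6 ± 2.24 (log2 2.02 ± 0.15; 1.27 depth-matched). Ncl, nucleolin, was at 814 ± 49.0 against 410 ± 8.11 CPM (log2 0.96 ± 0.08). Replication genes were higher in 12 of 15 against all double-negative cells and in 0 of 14 against depth-matched ones, where 2 were lower, so that call did not hold at equal depth. Mcm5, a helicase subunit, was at 122, 175, 81.1 and 150 CPM against 42.1 ± 3.93 (log2 1.64 ± 0.17), with a depth-matched change of 0.37 (edgeR adjusted p = 0.462). Glycolysis genes were likewise higher in 8 and lower in 2 of 16, and in 1 and 1 of 13 at equal depth; Tpi1 had a log2 fold change of 1.43, and 0.21 when matched.

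**Figure D3:**
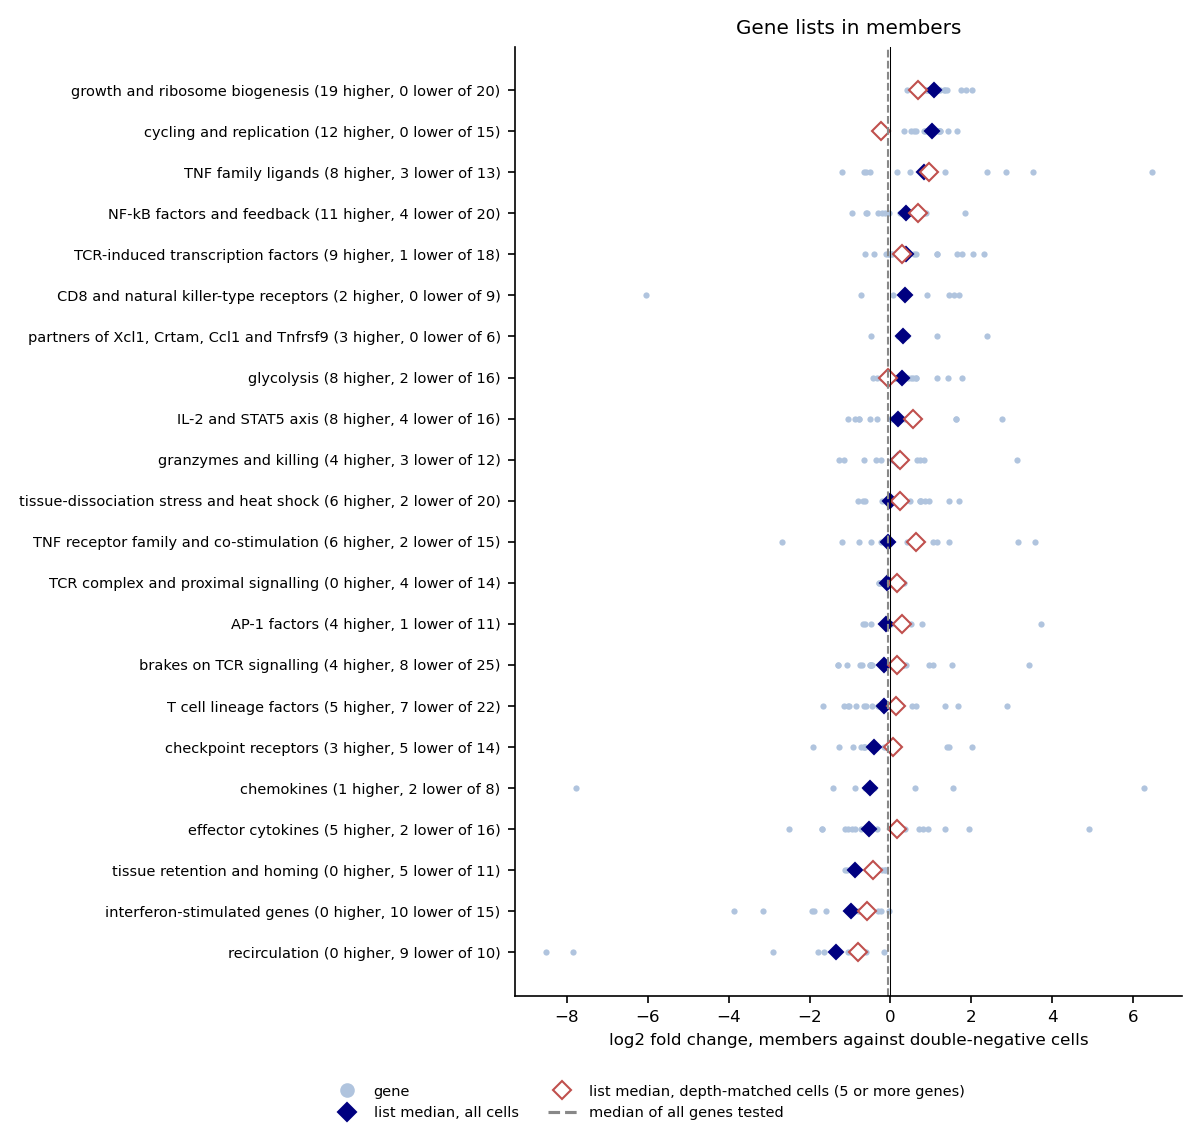
Log2 fold change of Xcl1 Crtam cells against double-negative cells for the genes of each list with 5 or more genes tested (light dots), the list's median with all cells (filled diamond) and, over the genes tested there, with depth-matched cells (open diamond). The dashed line is the median of all genes, -0.05; the growth list lies to its right in both fits, and the median of the cycling list is 1.03 with all cells and -0.24 at equal depth.

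Recirculation and interferon genes lay at the other end. Of 10 genes that let T cells leave tissue and enter lymph nodes, 9 were lower and none higher, with a median log2 fold change of -1.34 (-1.16 with genes at 0 set to a limit of 3 UMIs over all members); 2 of 7 were lower at equal depth. S1pr1, the receptor that guides exit along sphingosine-1-phosphate, was at 2.77, 11.9, 0 and 3.42 CPM against 29.2 ± 4.12 (log2 -2.90 ± 0.40; -3.68 without library 2). Klf2, the factor that maintains S1pr1, was at 36.0, 55.7, 22.7 and 23.9 CPM against 95.4 ± 14.1 (log2 -1.63 ± 0.27). Tissue retention and gut homing genes were higher in 0 and lower in 5 of 11. Ccr9, the receptor for the small intestinal chemokine Ccl25, was at 262 ± 72.0 against 515 ± 55.8 CPM, and Itgb7, the beta chain of the gut homing integrin, at 179 ± 64.6 against 402 ± 22.1 CPM. In the other comparisons fewer recirculation genes were lower. Against Xcl1-only cells 1 was higher and 2 lower of 10 (median log2 -0.49), and against Ifng Il12rb2 cells 1 and 2 of 8 (median -0.37). Against Il2 Cd40lg cells 1 was higher and 6 lower of 8 (median -0.85), and against Crtam-only cells 0 and 6 of 10 (median -1.52).

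Of 15 interferon-stimulated genes, 0 were higher and 10 lower (0 and 5 of 11 at equal depth; median log2 -0.99). Ifit1 was at 8.30, 0, 3.24 and 3.42 CPM against 33.9 ± 7.56 (log2 -3.16 ± 0.38; -3.87 without library 1). Among lineage factors 5 of 22 were higher and 7 lower (median log2 -0.16), and 3 and 3 of 17 at equal depth (median 0.13). Zeb2, a factor of terminal effector cells, was at 105, 71.7, 90.8 and 78.7 CPM against 11.1 ± 4.01 (log2 2.89 ± 0.24; 2.09 depth-matched). Maf was at 146 ± 31.1 against 319 ± 20.4 CPM. Killing genes were mixed, with 4 of 12 higher and 3 lower (2 and 1 of 10 at equal depth): Nkg7 was at 1662 ± 294 against 905 ± 110 CPM and Gzmb, chosen after its values were seen, at 404 ± 207 against 917 ± 76.7 CPM. Xcr1, the receptor of Xcl1, was found in 18 members at 25.9 ± 15.3 against 10.7 ± 4.39 CPM, and its call was lost without library 3.

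Cells with Xcl1 and no Crtam (6831 cells) had lower levels of Tnfrsf9, Slc30a3, Rel and Il2ra than members. Members differed from them in 2657 of 10387 genes (25.6%), 1409 higher (13.6%) and 1248 lower (12%), and in 642 of 5086 (12.6%) when depth-matched. Tnfrsf9 was at 832 ± 221 against 44.7 ± 12.4 CPM (log2 4.19 ± 0.18), Ccl1 at 442 ± 288 against 11.2 ± 12 CPM (log2 5.22; 2.92 depth-matched) and Slc30a3 at 162 ± 45.3 against 1.15 ± 0.510 CPM (log2 7.02; 4.77 depth-matched). Rel was at 635 ± 62.0 against 157 ± 26.4 CPM and Il2ra at 117 ± 27.9 against 18.9 ± 2.48 CPM. Areg had a log2 fold change of 2.47, and 2.07 at equal depth (edgeR adjusted p = 0.00622). Cd40lg was at 289 ± 24.0 against 764 ± 29.6 CPM, and its call held at equal depth (log2 -1.07, edgeR adjusted p = 0.000574). Higher genes were 53.0% of the calls here, 56.2% with library size alone and 63.4% with DESeq2's size factors and Wald test. Their share was 40.0% with each cell thinned to 2000 UMIs, 46.6% without the filter on low counts and 48.4% with members of at least 2 UMIs of each gene.

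Cells with Crtam and no Xcl1 were few (102 cells, 23 to 30 in a library), and this comparison was the least certain. It gave 409 calls of 10387 (3.94%), 277 higher (2.67%) and 132 lower (1.27%), but 10 calls, 9 higher and 1 lower, when limma voom allowed each class its own spread. Higher genes were 67.7% of the calls here, 56.4% with library size alone and 48.6% with DESeq2's size factors and Wald test. Il2ra was at 117 ± 27.9 against 23.6 ± 7.04 CPM (log2 2.31 ± 0.33, edgeR adjusted p = 0.000166; limma voom adjusted p = 0.0435). Rel was at 635 ± 62.0 against 223 ± 71.7 CPM, with a limma voom adjusted p of 0.0689. Ccl5 was at 2178 ± 320 in members and 8605 ± 2727 in Crtam-only cells, lower in every library. Cd8a was found in 19 of 102 Crtam-only cells and 20 of 178 members.

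Another pair of classes had also been chosen by a couple of activation transcripts each. Against 2355 cells with Il2 and Cd40lg, 2468 of 9615 genes differed (25.7%), 1384 higher (14.4%) and 1084 lower (11.3%) in members, and 485 of 5026 at equal depth (9.65%). Slc30a3 was at 162 ± 45.3 against 1.22 ± 1.30 CPM and Zeb2 at 86.6 ± 14.7 against 4.48 ± 2.50 CPM. Plek, the platelet and leukocyte C kinase substrate, was at 52.3 against 2.30 ± 0.819 CPM. Ccl5 was at 2178 ± 320 against 1824 ± 347 CPM with overlapping libraries. Klf3 was at 26.1 ± 4.57 against 119 ± 12.6 CPM.

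Against 3003 cells with Ifng and Il12rb2, 2633 of 9615 genes differed (27.4%), 1387 higher (14.4%) and 1246 lower (13%), and 868 of 5026 at equal depth (17.3%). Nrgn was at 137 ± 33.6 against 0.373 ± 0.512 CPM and Cd160 at 636 ± 171 against 145 ± 24.7 CPM. Of 10 effector cytokine genes, 3 were higher and 3 lower in members (2 and 2 of 7 at equal depth). Il10 was at 14.3 ± 15.7 against 119 ± 32.7 CPM (log2 -3.37 ± 0.33), Il21 at 15.3 ± 10.2 against 79.0 ± 19.5 CPM (log2 -2.54 ± 0.27) and Il18r1, an IL-18 receptor chain, at 66.3 against 345 ± 61.4 CPM (log2 -2.46 ± 0.16). Each of these 3 was also called at equal depth. Growth genes were higher in 19 of 20 against Il2 Cd40lg cells and in 18 of 20 against Ifng Il12rb2 cells, and in 10 and 15 of 17 at equal depth, where 5.03% and 8.5% of all genes tested were higher. These comparisons share the members and so are not independent of each other.

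The members were not alike. Of 178, 117 (65.7%, exact 95% interval 58.3% to 72.7%, counting error only) held Tnfrsf9, 51 held Ccl1 and 62 held Slc30a3. Of the Ccl1 cells 50, and of the Slc30a3 cells 60, also held Tnfrsf9. At least 3 of Tnfrsf9, Ccl1, Slc30a3, Nrgn and Cnih2 were found in 60 members, and none of them in 53. Ifng was found in 108 members, Il2 in 38 and both in 28, while Il17a was found in 8, Il22 in 5 and Il10 in 8.

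Members were then divided by Tnfrsf9, a split made after the values had been seen and therefore given without a test; cells with Tnfrsf9 were also deeper (median 7790 against 4714 UMIs), and the part of depth in the split was not tested. In the 117 with Tnfrsf9, Xcl1 was at 6079 ± 1773 and Crtam at 619 ± 133 CPM; in the 61 without, they were at 938 ± 454 and 214 ± 31.1 CPM. Slc30a3 was at 183, 297, 213 and 162 CPM with Tnfrsf9 and at 0, 15.9, 10.8 and 0 CPM without. Rel was at 801 ± 97.7 with and 141 ± 83.2 CPM without, the latter near the 174 ± 33.4 CPM of double-negative cells. Il2 was at 261, 313, 329 and 191 CPM with Tnfrsf9 and at 38.4, 31.8, 21.6 and 21.5 CPM without. Areg, with 38 of its 39 cells in the Tnfrsf9 group, was at 694 ± 485 and 8.09 ± 16.2 CPM.

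Ccl5 went the other way, at 1319 ± 428 CPM with Tnfrsf9 and 4770 ± 1689 CPM without, where it lay near the 3988 ± 1136 CPM of double-negative cells. Cd40lg was at 226 ± 18.8 with, 474 ± 103 without and 656 ± 57.8 CPM in double-negative cells. Cd8a was found in 7 of 117 cells with Tnfrsf9 and in 13 of 61 without. Cd160 was similar in both, at 665 ± 237 and 533 ± 46.7 CPM, each above the 222 ± 6.85 CPM of double-negative cells. In the members without Tnfrsf9, activation transcripts lay on both sides of the double-negative level. Rel, Myc and Il2 had lower means there than in double-negative cells, at 141, 28.2 and 28.3 against 174, 41.4 and 49.2 CPM. Nr4a2 was at 372 ± 212 against 208 ± 18.2 CPM, Rgs16 at 31.2 ± 18.8 against 8.23 ± 1.23 CPM, Zeb2 at 32.8 ± 17.7 against 11.1 ± 4.01 CPM, Srm at 37.5 ± 31.4 against 23.6 ± 2.24 CPM and Il2ra at 21.2 ± 18.8 against 16.4 ± 1.66 CPM.

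**Figure D4:**
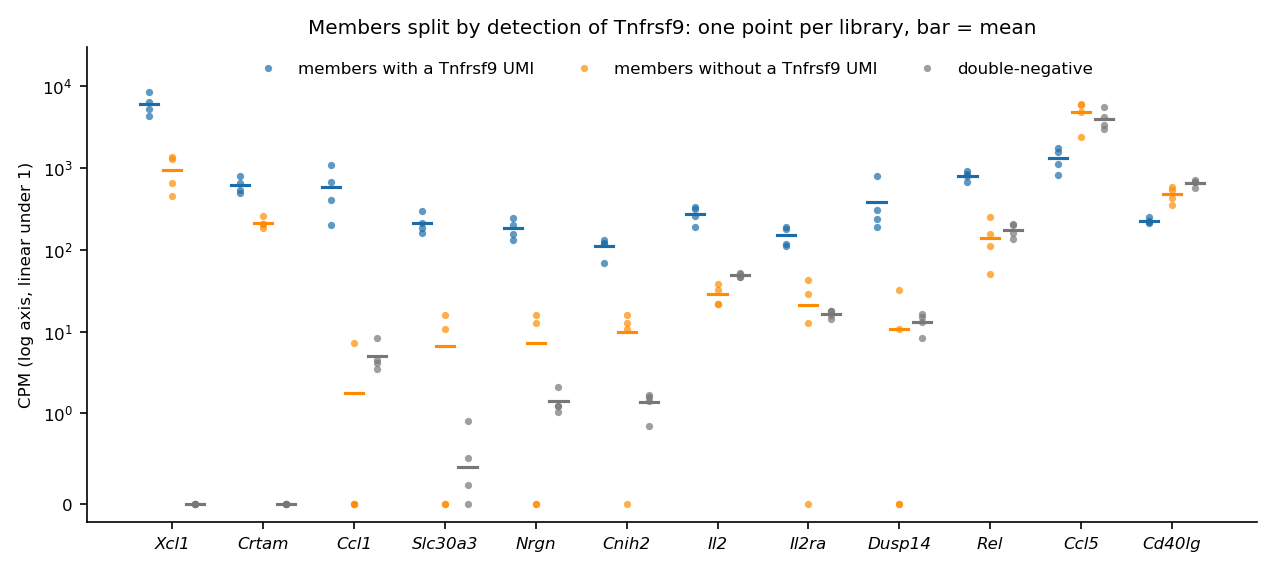
Level of 12 genes (CPM, log axis that is linear under 1) in the 117 members with a Tnfrsf9 UMI (blue), the 61 without (orange) and double-negative cells (grey); each point is a library and each bar the mean of 4. Slc30a3, Nrgn, Cnih2, Dusp14, Il2 and Rel are higher in blue than in orange in every library, and Ccl5 and Cd40lg are lower.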

How the data were processed

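Single cells of 4 libraries of 1 group were analysed. The authors deposited whole UMI counts per gene and cell. The submitters' processing notes name Cell Ranger 3.0.2 and mm10. The libraries held 28783972, 26407082, 23918884 and 26681150 UMIs, and the count per cell and class limits precision. The rule kept barcodes that held 500 or more genes, 1000 or more UMIs and no more than 10% of UMIs from mitochondrial genes, 22534 of 22904. Counting intervals are exact binomial (95%).

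Counts were summed per library and class. The 4 Foxp3-negative classes formed 1 fit and the members with Il2 Cd40lg and Ifng Il12rb2 cells another. Both used edgeR 4.0.16 (quasi-likelihood test, TMM, filterByExpr, library as a block) with Benjamini-Hochberg adjustment over all genes tested, in R 4.3.3. The genes of the rules were left out. Libraries pair the classes because each class came from the same libraries. Alternatives used DESeq2 1.42.0, limma 3.58.1 voom, and cells thinned or depth-matched in Python 3.11.15. Depth-matched cells were the nearest in UMI total, 1 for each member, within a library. Doublet scores came from Scrublet in scanpy 1.11.5, and 1033 cells were removed in that alternative. Scripts were tested on simulated sums. Positions come from GENCODE for GRCm38 and promoter windows from RefSeq.

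The members, markers and gene lists were chosen with earlier results of these data known. For naming, the 10 genes with the highest and the 10 with the lowest called log2 fold change were taken against double-negative, Il2 Cd40lg and Ifng Il12rb2 cells, given the same direction in all 4 libraries and 20 CPM or more in a class. Each list added up to 4 genes, by adjusted p. Predicted, receptor, immunoglobulin, ribosomal and mitochondrial genes were left out. Other genes are named as chosen after their values were seen.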

Additional observations from a re-analysis of the deposited data

Results flagged for a closer look

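Dixon's test at 95% was applied to 59 sets of library values, namely the share of members and the levels of 58 genes named here. In the members, 1 library stood apart from the other 3 for 6 of these genes. Chance alone flags about 1 in 20 such sets. Library 2 held the high value for 4 of them: Tnfsf9 at 108 CPM against 16.2 to 19.4 CPM in the others, Dusp14 at 601 against 145 to 217 CPM, Bcl2l1 at 127 against 58.4 to 66.7 CPM, and Cd8a at 155 against 19.5 to 41.0 CPM. It was also the library with the fewest members, 33. Library 3 held the high value for Lta, at 133 CPM against 39.8 to 49.8 CPM, and for Trdc, the constant chain of the gamma-delta T cell receptor, at 19.5 CPM against 0 in the others. The part of single cells in these values was not tested.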

How the results depend on the processing

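Against depth-matched cells, counts of genes that differed fell to 416 (double-negative), 642 (Xcl1-only), 485 (Il2 Cd40lg) and 868 (Ifng Il12rb2), with fewer cells and genes tested. With each cell thinned to 2000 UMIs, chosen after seeing the data, they were 723, 815, 720 and 866, and 129 against Crtam-only cells. Too few Crtam-only cells existed for a depth-matched comparison, which was not run. The Crtam-only count of 409 was 872 with members of at least 2 UMIs of each gene, 640 without the filter on low counts, 149 with those 2 classes alone, 185 without cells holding UMIs of other cell types and 10 with limma voom with a spread for each class, also chosen after seeing the data. The share of members was 0.419% at 2000 UMIs and 0.389% with at least 2 UMIs of each. Leaving out each library in turn gave 1602 to 1912, 1942 to 2165, 174 to 320, 1742 to 2026 and 1899 to 2238 calls for double-negative, Xcl1-only, Crtam-only, Il2 Cd40lg and Ifng Il12rb2 cells, and shares of 0.684% to 0.876%. Without library 2 the Crtam-only count was 174, without library 3 203 and without library 1 258. With no replicate block, that is, without pairing classes by library, the counts were 2077, 2380, 361, 2324 and 2483. Of 116 named genes called against double-negative cells, 87 could be tested at equal depth: 63 held, 21 lost the call and 3 reversed, none of them called there, namely Ccl5 (0.18), Mcm3 (-0.0095) and Cd3g (0.19). Fcer1g reversed to -0.58 with at least 2 UMIs of each gene. The causes were not tested.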
